A study of Mus musculus with 42 samples.

Results

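Input RNA of mouse liver was compared between 2 library kits that treat poly(A) tails differently. SMTer (the SMARTer Stranded Pico kit of TaKaRa) primes cDNA on total RNA at random, without poly(A) selection, and then cleaves library fragments of ribosomal RNA, and it keeps the strand. Tru4 (the TruSeq RNA v2 kit with 4 ng of RNA) first captures RNA by its poly(A) tail and does not keep the strand. The comparison holds 6 of the 42 libraries of the series, 3 of each kit, made from 4 ng of RNA in both. The RNA came from the same 3 untreated mice, all Gfi1Cre/+;Rpl22HA/HA, so that every library shares 1 Gfi1-Cre allele and the RiboTag allele of the ribosomal protein gene Rpl22 on both chromosomes. Cre under Gfi1 puts an HA tag on Rpl22 in the cells that use or once used Gfi1, but input is RNA of the homogenate before any immunoprecipitation, from all liver cells. The growth protocol and the methods give the age as 30 days, and the stage label gives 1 day. The background strain of the crossed animals was not given in the sources used here.

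Input was defined in both kits as the libraries labelled input replicates 1 and 2 and the library labelled IP replicate 3, which follows the study's own table of features per library. The libraries labelled input replicate 3 stood apart in their markers. Their summed RPKM over 7 erythroid markers was 21193 in SMTer and 164310 in Tru4, against 579 to 1066 and 1962 to 2214 in the libraries used. For 10 Kupffer cell markers the sums were 625 and 2280, against 8.89 to 14.6 and 42.5 to 45.1. Values with the fractions as labelled stand in the closing section. The second SMTer library also stood apart. CT010467.1, a gene on nuclear ribosomal RNA sequence, took 13.1% of its mapped reads against 2.91% and 3.67% in the other 2 SMTer libraries, and its median protein-coding gene lay at 0.70 on the log2(RPKM + 1) scale against 1.25 and 1.29. The liver label held in both kits: Alb, the plasma albumin, was read at 882 to 1808 RPKM in SMTer and 5628 to 6658 RPKM in Tru4.

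Most messenger RNAs end in a poly(A) tail that is added after cleavage near an AATAAA signal. Several other classes of RNA carry none. The U1 and U2 small nuclear RNAs pair with the 5′ splice site and the branch point of introns, and 7SL, 7SK, the RNase P and RNase MRP RNAs and the Y RNAs are made by RNA polymerase III and work inside small ribonucleoproteins. Messages of the replication-dependent histones, which supply DNA synthesis, end after a short stem-loop in place of a tail, while the replacement histones made outside S phase have ordinary polyadenylated messages. Liver is made up mainly of hepatocytes, whose abundant messages encode plasma proteins and metabolic enzymes and are polyadenylated.

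The sequences below show the classes that set the kits apart, taken from GENCODE M21 transcripts on GRCm38. The first is the U1 RNA Rnu1a1 (chr11:87422867-87423030, plus strand, inside the span of Tex14), with capitals on its first 11 bases, the stretch that pairs with 5′ splice sites and by which its copies were counted.
Rnu1a1: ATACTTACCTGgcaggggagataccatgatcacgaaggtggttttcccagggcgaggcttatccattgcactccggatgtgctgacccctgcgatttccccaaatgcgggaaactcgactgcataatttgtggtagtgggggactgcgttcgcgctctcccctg
The next is the U2 RNA Rnu2-10 (chr11:101658238-101658428, plus strand, in no other gene), with its first 14 bases in capitals, by which U2 copies were counted.
Rnu2-10: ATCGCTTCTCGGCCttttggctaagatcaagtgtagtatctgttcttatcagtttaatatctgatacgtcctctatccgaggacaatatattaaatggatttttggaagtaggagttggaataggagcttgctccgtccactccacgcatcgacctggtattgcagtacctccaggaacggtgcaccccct
A family of genes of 57 bases, annotated as miRNA, took more reads in SMTer than the snRNA, small ribonucleoprotein and histone genes together. Gm23935 (chr16:11144125-11144181, plus strand, inside Zc3h7a) and Gm24187 (chr13:9834469-9834525, minus strand, in no other gene) differ by G11A, counted from 1 at the 5′ end, and the capital marks that base.
Gm23935: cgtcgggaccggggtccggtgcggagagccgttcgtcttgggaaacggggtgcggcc
Gm24187: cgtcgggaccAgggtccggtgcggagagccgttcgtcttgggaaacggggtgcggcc
Histone genes are shown by windows of 26 bases in the 3′ UTR, all on chromosome 13. Capitals in the first 4 mark the stem-loop motif (GGNNCTT, any base, T, any base and AGNNCC, 16 bases in all), and in the last the AATAAA signal that Hist1h1c has as well, further on. They lie at chr13:23621777-23621802 (minus strand), chr13:23683472-23683497 (minus), chr13:23581945-23581970 (plus), chr13:23739507-23739532 (plus) and chr13:23740332-23740357 (plus), in that order.
Hist1h1e: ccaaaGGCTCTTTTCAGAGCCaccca
Hist1h2ac: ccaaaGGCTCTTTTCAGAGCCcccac
Hist1h4d: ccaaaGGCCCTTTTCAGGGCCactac
Hist1h1c, stem-loop: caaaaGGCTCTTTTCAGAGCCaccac
Hist1h1c, AATAAA: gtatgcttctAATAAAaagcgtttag

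The deposited RPKM values were used as the authors scaled them, per kilobase of gene span and per number of mapped reads. Mapped reads numbered 33150667 to 49823890 in SMTer and 91641304 to 124537457 in Tru4. Differences are SMTer minus Tru4 on the log2(RPKM + 1) scale, which understates the change of low genes, and were tested with limma over 7035 genes. A gene was called at a Benjamini-Hochberg adjusted p under 0.05 and a difference of at least 1. By this rule 592 genes (8.42%) were higher in SMTer and 3111 (44.2%) were lower. Genes entered the test at an RPKM of at least 1 in at least 3 of the 6 libraries. Of the 7035 genes, 294 passed this filter on low values only through SMTer and 1683 only through Tru4. Among the 4390 protein-coding genes tested it was 42 and 1418. Such genes had to differ in that direction, and they enter the shares and medians given here. The median difference was -0.91 over all genes tested and -0.98 over protein-coding genes. Each gene was also read after each library was centred on its protein-coding median. On the centred scale 1019 genes (14.5%) were higher and 510 (7.25%) lower, so that 66.6% of the calls were higher, against 16.0% on the deposited scale. For genes too low to test, the order of the libraries was used: of 30448 genes with reads, the 3 SMTer libraries all lay above the 3 Tru4 libraries in 2341 (7.69%) and below them in 11744 (38.6%).

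**Figure D1:**
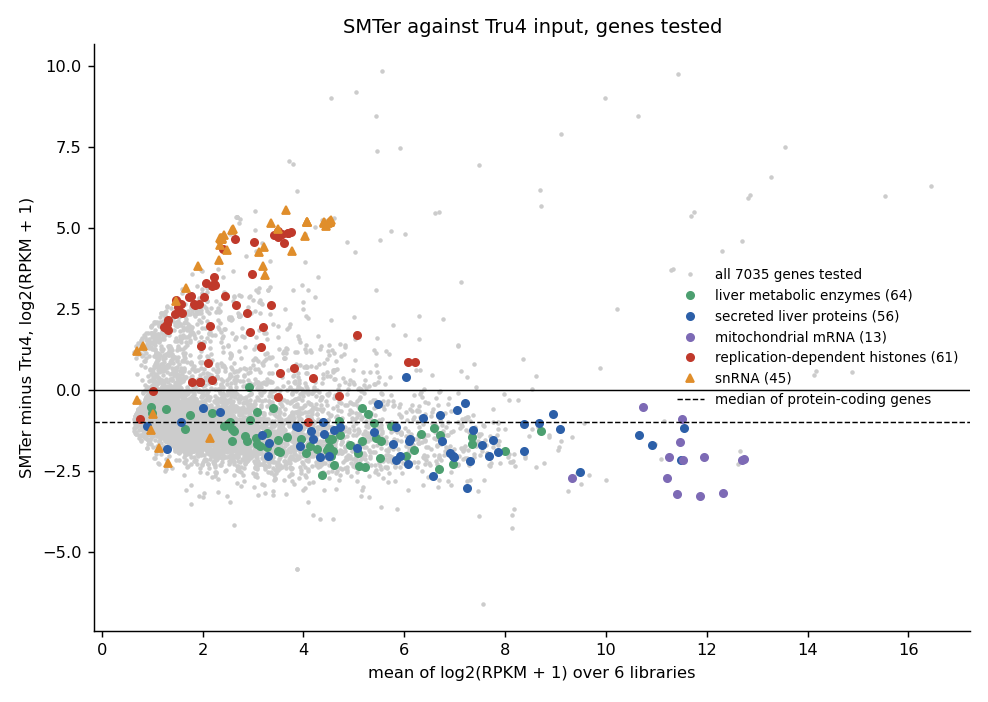
Difference between kits (SMTer minus Tru4, log2(RPKM + 1) scale, y) against the mean level over the 6 libraries on the same scale (x). Each point is a gene, the classes are coloured, the solid line is 0 and the dashed line is the median of protein-coding genes at -0.98; snRNA and replication-dependent histone genes lie mostly above both lines and mitochondrial mRNA below.

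The U1 and U2 RNAs of the spliceosome were higher in SMTer in every copy tested. Of 46 genes with the U1 start, 29 had reads, and in 24 of them every SMTer library lay above every Tru4 library and in 0 below, against the 7.69% and 38.6% of all genes. All 21 that could be tested were called higher, by 4.29 to 5.26 on the log2(RPKM + 1) scale, but 9 of them passed the filter on low values only through SMTer, so that they had to differ. Summed over the U1 copies, RPKM was 2632, 1349 and 1295 in SMTer and 91.3, 21.6 and 9.14 in Tru4, with no overlap between kits. The U2 copies behaved alike: 14 of 16 had reads, all 14 lay above, and all 12 tested were called higher, 4 of them tested only through their SMTer values. Their sums were 708, 876 and 564 RPKM against 27.1, 11.5 and 3.39.

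The 3 snRNA genes with the highest level were all U1 copies on chromosome 12. Gm23804 (chr12:54714218-54714381) was read at 256, 107 and 108 RPKM in SMTer and 8.45, 2.06 and 0.865 in Tru4. That is a difference of 5.26 ± 0.45 (SE, adjusted p = 2.55e-29). Gm25679 and Gm22317 nearby differed by 5.22 and 5.198. These values are not separate measurements. Reads with up to 25 hits were counted at each place, and in 14 of the 21 tested U1 genes every stretch of 60 bases, the trimmed read length, also occurs in another tested U1 gene.

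Outside U1 and U2 the snRNA class moved in both directions. Of the other 256 snRNA genes with reads, 14 lay above in SMTer and 12 below, against 7.69% and 38.6% of all genes with reads. Of the 12 tested, 6 were called higher and 4 lower, against 8.42% and 44.2% of all genes tested, and 4 of the 12 passed the filter only through SMTer. Rnu12, the U12 RNA of the minor spliceosome, was higher at 1.06, 1.60 and 1.76 RPKM against 0.0723, 0.160 and 0. Rnu11 was untested, at 0.723 to 1.58 RPKM in SMTer and at most 0.163 in Tru4. Rnu7, the 62-base RNA that guides the cut behind the histone stem-loop, was lower in SMTer, at 0, 0.487 and 0 RPKM against 5.10, 2.85 and 5.72. It lies inside the span of Grcc10, whose reads are counted there too. Rnu6 had no reads in any of the 6 libraries.

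Longer snRNA and snoRNA genes lay above in SMTer more often than shorter ones, but many long ones did not. Of all genes with reads 7.69% lay above and 38.6% below. Among snRNA genes of at least 130 bases, 46 of 86 with reads lay above in SMTer (53.5%) and 2 below, against 6 and 6 of 181 genes of 100 to 129 bases and 0 and 4 of 32 genes under 100 bases. Among snoRNA genes, which guide the modification of ribosomal RNA, 58 of 182 of at least 130 bases lay above (31.9%) and 4 below. For snoRNA genes of 100 to 129 bases it was 10 and 2 of 72, and under 100 bases 4 and 17 of 139. The lengths are those of the annotated gene. Rnu1a1 has 164 bases and Rnu2-10 has 191, so the split by length and the split by U1 and U2 are not separate results.

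RNAs of small ribonucleoproteins were higher in SMTer with few exceptions. Of the 35 listed genes 34 had reads, 29 lay above in SMTer and 1 below, against 7.69% and 38.6% of all genes with reads. Of 25 tested, 23 were called higher and 1, Rnu7, lower, against 8.42% and 44.2% of all genes tested. The median difference was 2.76, and 6 of the 25 passed the filter only through SMTer. The 7SL RNA of the signal recognition particle was read from Rn7s1 at 33702, 18562 and 19641 RPKM in SMTer and 1098, 404 and 304 in Tru4, 39.8 times as high on average. Rn7s2 has the same sequence as Rn7s1 over 300 bases, so their reads cannot be told apart. Rn7s6, also annotated as 7SL, was at 12269, 6728 and 7733 RPKM against 68.8, 29.5 and 20.2, a difference of 7.92 ± 0.53 (SE, adjusted p = 1.20e-47).

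Rn7sk, the 7SK RNA that holds back the elongation factor P-TEFb, was at 3751, 1986 and 3608 RPKM in SMTer and 122, 42.6 and 36.0 in Tru4. Rpph1, the RNA of RNase P, which trims tRNA precursors, was at 2781, 1431 and 1965 RPKM against 38.0, 10.2 and 8.76, and Rmrp of RNase MRP at 433, 247 and 388 against 33.3, 8.92 and 4.34. Rny3, a Y RNA, was at 7.48, 3.25 and 16.1 RPKM against 0.214, 0 and 0. Rny1 stayed at 0.216 RPKM or less in every library. In all of these but Rny1 the SMTer libraries lay above every Tru4 library.

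**Figure D2:**
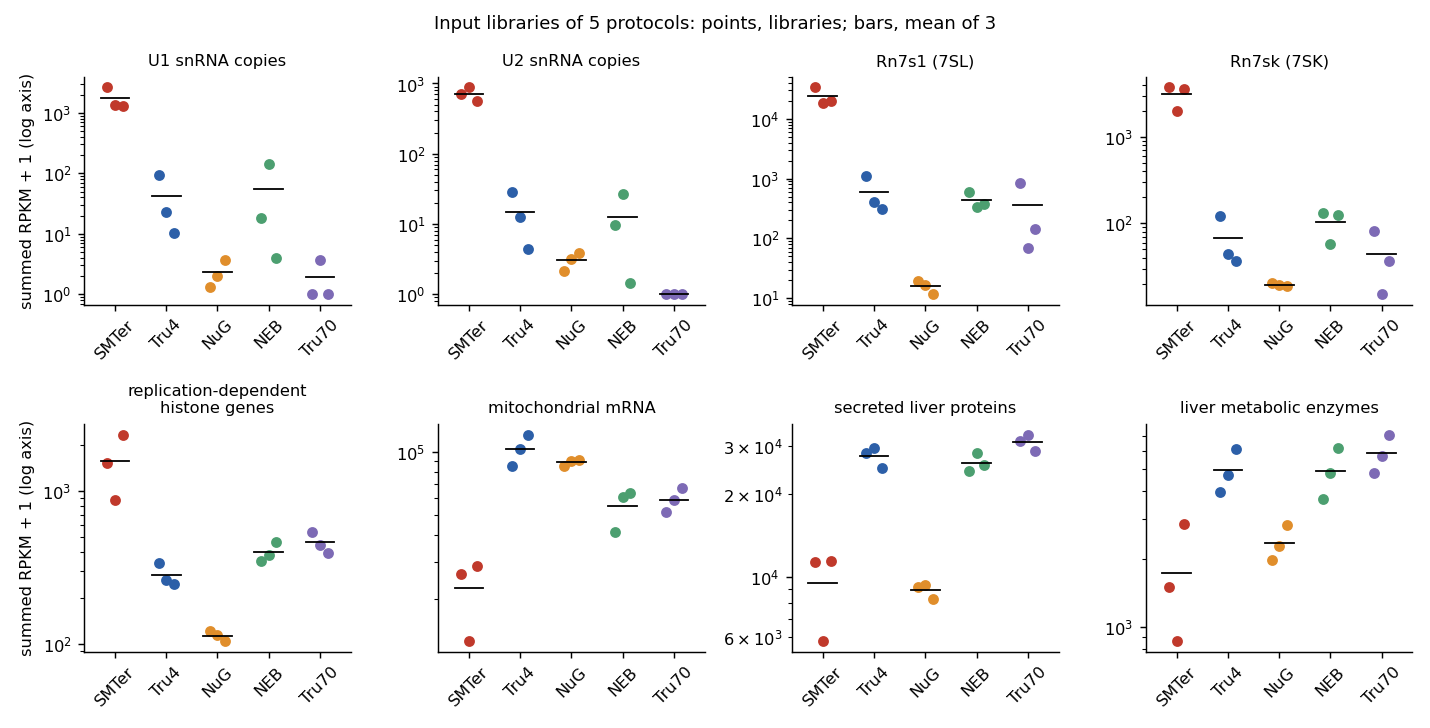
Summed RPKM + 1 (log axes, which differ between panels) of 8 RNA groups in the input libraries of 5 protocols; points are libraries and bars the mean of 3. U1, U2, 7SL (Rn7s1) and 7SK (Rn7sk) lie far above the other protocols in SMTer, while mitochondrial mRNA, secreted liver proteins and liver enzymes are below Tru4 in SMTer.

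Levels in 3 other protocols are given for the same input RNA, with no test. For NuG and NEB input again means the libraries labelled input replicates 1 and 2 and IP replicate 3. For Tru70 it means the libraries labelled input replicates 1, 2 and 3. NuG (NuGEN Ovation V2, 4 ng) uses no poly(A) selection either, and NEB (4 ng) and Tru70 (TruSeq with 70 ng) select poly(A) tails. The sum over U1 copies was 0.322, 0.978 and 2.696 RPKM in NuG, 17.3, 143 and 2.93 in NEB and 0, 2.67 and 0 in Tru70. In NuG, which primes cDNA with both semi-random and poly-dT primers, every library lay below the lowest Tru4 library. NuG had 36.6% to 38.2% of its mapped reads on mitochondrial rRNA.

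Among snoRNAs 37 of 67 tested genes were called higher and 8 lower, against 8.42% and 44.2% of all genes tested, with a median difference of 1.13. Of the 67, 21 passed the filter only through SMTer, and 65 lie inside another gene or another annotation. Copies of the U3 snoRNA, which acts in the first cuts of pre-ribosomal RNA, had some of the largest differences. Rnu3b2 was read at 8.92, 11.03 and 10.09 RPKM in SMTer and 0.606, 1.34 and 0.188 in Tru4. The 3 snoRNA genes with the highest mean level went the other way. Snora20, in an intron of Tcp1, was lower at 5.17, 3.06 and 2.27 RPKM against 14.6, 16.4 and 12.03. Snord104 was called lower too, at 2.29, 0.862 and 7.96 against 7.17, 17.3 and 10.1, but its kits overlap. Neither kept its call on the centred scale, at -0.83 and -0.66 (adjusted p = 0.0347 and 0.267). Gm24853 was not called, at 10.8, 2.99 and 4.00 RPKM against 11.9, 12.5 and 8.96, and its difference went from -0.96 to 0.02 on the centred scale.

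The scaRNAs, which guide modification of the spliceosomal RNAs in Cajal bodies, were 27 with reads. Of these 7 lay above and 1 below, against 7.69% and 38.6% of all genes with reads. Of the 5 tested, 4 were called higher, against 8.42% of all genes tested, and 4 of the 5 passed the filter only through SMTer. Gm22442 was at 21.3, 8.59 and 26.7 RPKM in SMTer and 0.758, 0 and 0.422 in Tru4, and Gm26083 at 22.8, 9.22 and 10.4 against 0, 0 and 0.262. Scarna2 and Scarna13 were the others, with differences of 2.06 and 2.53. Gm22009 was not called, at 10.3, 5.54 and 11.5 RPKM against 10.4, 3.98 and 9.63.

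Of 138 tested microRNA genes named Mir, 11 were called higher (7.97%) and 74 lower (53.6%), against 8.42% and 44.2% of all genes tested. The share called higher is near that of all genes, and 132 of the 138 lie inside another gene, whose reads are counted there. Mature miRNAs are shorter than the trimmed reads of 60 bases.

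Replication-dependent histone genes formed the largest group of coding genes that was gained. All 68 listed genes had reads, 48 lay above in SMTer and 2 below, against 7.69% and 38.6% of all genes with reads. Of the 61 tested, 46 were called higher and 0 lower, against 8.42% and 44.2% of all genes tested. The median difference was 2.61, and 23 of the 61 passed the filter on low values only through SMTer. On the centred scale 56 were higher and 0 lower, against 14.5% and 7.25% of all genes tested. They made up 44 of the 90 protein-coding genes called higher. Their summed RPKM was 1533, 866 and 2342 in SMTer and 334, 262 and 246 in Tru4, against 119, 113 and 102 in NuG, 348, 377 and 465 in NEB and 541, 443 and 392.4 in Tru70.

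The histone families differed from each other. Of 20 H2A genes 16 lay above and 0 below, with a median difference of 4.70 over genes with reads, of 13 H4 genes 12 and 0 (2.91), of 12 H3 genes 11 and 0 (2.20), and of 6 H1 genes 4 and 1 (2.06). Of 17 H2B genes only 5 lay above and 1 below, with a median of 0.31. Most histone genes share sequence: 57 of the 61 tested have stretches of 60 bases found in another of them, over a median 76.2% of the gene in H2A, 52.4% in H2B, 55.3% in H3, 38.3% in H4 and 1.87% in H1. How reads were split between copies is therefore uncertain, above all in H2A.

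Single genes show the span of the group. The linker histone Hist1h1e was at 48.3, 23.1 and 52.4 RPKM in SMTer and 0.861, 0.333 and 0.894 in Tru4. Hist1h4d was at 27.2, 13.97 and 31.7 RPKM against 0.333, 0.123 and 0.0515. Hist1h2ac was at 54.1, 34.3 and 98.1 RPKM against 1.22, 1.20 and 1.15. In these 3 genes, whose stem-loops are printed above, the lowest SMTer library lay far over the highest Tru4 library.

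The highest histone genes differed less. Hist2h2aa1 and Hist2h2aa2, near copies on chromosome 3, were at 104, 53.7 and 130 and at 116, 60.3 and 144 RPKM in SMTer, and at 60.5, 40.2 and 47.8 and at 66.8, 44.5 and 53.3 in Tru4. Their differences of 0.87 missed the call (adjusted p = 0.0953 and 0.0959), and the kits overlapped. On the centred scale both were called higher, at 1.85 (adjusted p = 0.00108 and 0.00103). Hist1h2al, annotated as a pseudogene, was higher at 63.7, 32.6 and 99.995 RPKM against 20.03, 14.04 and 19.1. Hist1h2bg was at 26.6, 15.7 and 31.1 RPKM against 30.3, 30.8 and 20.8, with a difference of -0.18 (adjusted p = 0.706) that turned to 0.80 on the centred scale (adjusted p = 0.0166).

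The 2 genes that lay below in SMTer both have an AATAAA near the annotated end. Hist1h1c was at 14.3, 7.02 and 13.8 RPKM in SMTer and 29.5, 22.6 and 18.2 in Tru4. Its annotated transcript runs past its stem-loop to an AATAAA (both windows above). The annotated transcripts of Hist1h1e, Hist1h2ac and Hist1h4d, which lay above in SMTer, run past their stem-loops too. They have no AATAAA in the last 40 bases. Hist2h2be was at 0.153, 0.368 and 0.194 RPKM against 1.12, 1.56 and 1.24. Across the list, 15 genes have AATAAA in the last 40 bases of an annotated transcript. Of these 4 lay above and 2 below, against 7.69% and 38.6% of all genes with reads, with a median difference of 0.25. Hist1h2be, Hist1h1t, Hist2h4, Hist3h2ba and Hist4h4 among them were too low to test, which keeps their differences small. Hist1h2be, Hist1h2bq, Hist1h2bp, Hist1h2br, Hist2h2be and Hist3h2ba are H2B genes, the family with a median of 0.31. AATAAA, level and family were not separated. The other 53 had 44 above and 0 below with a median of 2.64, with Hist1h2aa and Hist3h2bb-ps too low to test. Leaving out genes annotated only to the stop codon, 31 of 36 without AATAAA lay above and 0 below.

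The stem-loop motif, searched on the sense strand of whole transcripts, was found in 44 of the 68 histone genes (64.7%) and in 43 of the 48 annotated past the stop codon (89.6%). It was in 117 of 21555 other protein-coding genes (0.543%). AATAAA in the last 40 bases was in 22.1% of the histone genes and 68.6% of the others. These are descriptions of the annotation, and the windows do not show where transcripts in liver end.

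**Figure D3:**
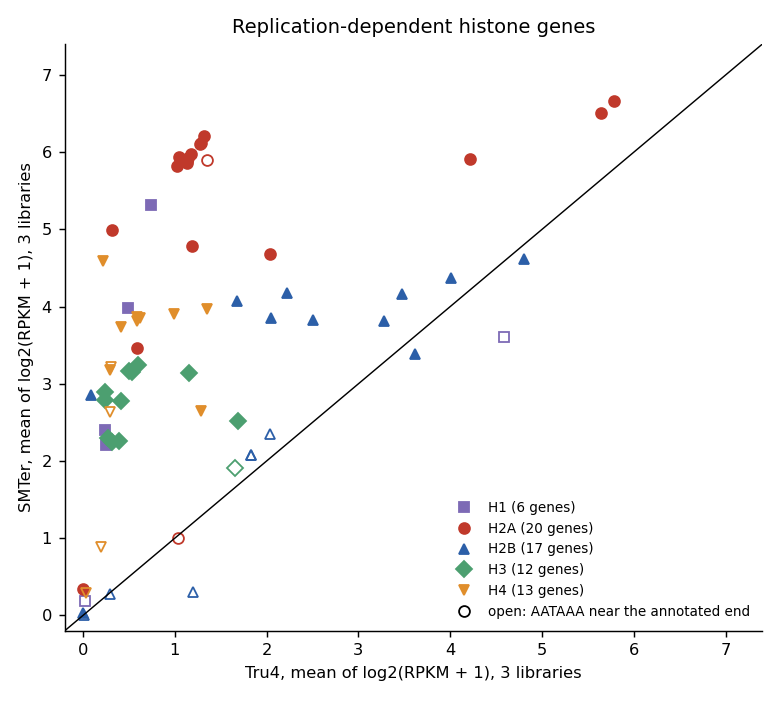
Replication-dependent histone genes: mean of log2(RPKM + 1) over 3 libraries in Tru4 (x) and SMTer (y). Each symbol is a gene, colour and shape give the family, open symbols have AATAAA near the annotated end, and the line marks equal values; H2A, H3 and H4 genes lie mostly far over the line while several H2B and open symbols lie close to it.

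Replacement histones with polyadenylated messages went the other way. Of 9 genes with reads 0 lay above in SMTer and 8 below, against 7.69% and 38.6% of all genes with reads. Of 6 tested 4 were called lower and 0 higher, against 44.2% and 8.42% of all genes tested, with a median difference of -1.59. H1f0, the linker histone of resting cells, was at 18.5, 10.1 and 18.8 RPKM in SMTer and 51.7, 51.2 and 51.8 in Tru4. H3f3b, a gene of the H3.3 variant, was at 5.48, 2.67 and 5.55 RPKM against 15.4, 15.4 and 16.0, and H2afj at 4.01, 2.59 and 3.15 against 12.7, 9.79 and 12.003. H2afz, the H2A.Z variant, was the fourth. It was the only one that stayed called on the centred scale, with a difference of -1.39.

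Long nuclear RNAs differed from one another. Of 18 with reads 3 lay above and 6 below (33.3%), the latter near the share of all genes with reads (7.69% above and 38.6% below). Only 4 were high enough to test, of which 1 was called higher and 2 lower, against 8.42% and 44.2% of all genes tested. Malat1, an abundant RNA of nuclear speckles whose 3′ end is a triple helix without a tail, was at 119, 70.2 and 188 RPKM in SMTer and 28.4, 36.1 and 41.8 in Tru4, a difference of 1.70 ± 0.50 (SE, adjusted p = 0.00105). Neat1, the scaffold of paraspeckles, was lower at 0.686, 0.234 and 0.644 RPKM against 2.75, 1.93 and 2.49, and so was Gas5, a polyadenylated host of snoRNAs, at 1.30, 0.410 and 1.29 against 8.46, 5.71 and 5.78. Tug1 was not called, at 1.79, 0.708 and 1.45 RPKM against 2.64, 2.88 and 3.28.

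Of these 4, Malat1 alone was called on the centred scale, and the differences of Neat1 and Tug1 were -0.18 and 0.19. Gas5 missed only the minimum difference there, at -0.97 (adjusted p = 0.00181). Kcnq1ot1, an unspliced imprinted RNA too low to test, lay above in SMTer at 0.205, 0.0783 and 0.209 RPKM against 0.0382, 0.0367 and 0.0317. Its span overlaps Kcnq1, and Tru4 does not tell the strands apart. Among lincRNAs as a whole 2 of 80 tested were called higher and 29 lower, against 8.42% and 44.2% of all genes tested, and 24 of the 80 passed the filter only through Tru4.

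Ribosomal RNA gave 3 different patterns. Among genes on nuclear ribosomal RNA sequence, AY036118, Gm42418 and CT010467.1 on chromosome 17 were not called. The first 2 lie inside CT010467.1, so that their reads are counted there too. CT010467.1 was at 11753, 53097 and 14823 RPKM in SMTer and 22127, 10784 and 14854 in Tru4, and the sign of its difference turned from 0.46 to -0.21 without the second SMTer library. Genes annotated as rRNA, mostly copies of 5S RNA, were called higher in 15 of 18 tested, with 0 lower, against 8.42% and 44.2% of all genes tested, but 14 of the 18 passed the filter only through SMTer. n-R5s193 was at 695, 730 and 981 RPKM against 1.5, 0 and 0.

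Mitochondrial rRNA was the third. mt-Rnr1 and mt-Rnr2, the small and large subunit RNAs, were 25.4 and 20.5 times as high in SMTer on average. They took 8.21%, 4.14% and 8.77% of mapped reads in SMTer and 0.345%, 0.245% and 0.347% in Tru4 (two-sided exact permutation test, p = 0.1, the smallest that 3 against 3 libraries can give). Mitochondrial tRNA genes mostly had less, 2 of 22 called higher and 15 lower, against 8.42% and 44.2% of all genes tested. The 2 that were higher, mt-Tf and mt-Tv, flank mt-Rnr1. mt-Tv was at 28211, 14523 and 30119 RPKM against 55.2, 37.4 and 40.2.

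The 57-base family printed above took 84.1 times as large a share of reads in SMTer on average. Gm23935, Gm24270 and Gm24245 have the same sequence, Gm24187 differs at 1 base and Gm25911 has 56 bases. Together they took 11.4%, 5.49% and 10.2% of the mapped reads in SMTer and 0.154%, 0.0767% and 0.0920% in Tru4. Gm23935 alone was at 1094600, 492030 and 925700 RPKM against 15389, 7540 and 8582. What RNA these reads come from was not tested.

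For the coding genes that rose most, the reads in the span were set beside the deposited exon counts. These are a weak measure in SMTer, since its libraries hold only 750159 to 762562 counts on genes, against 31299550 to 45466334 in Tru4, and their strand setting was not given in the sources used here. Low exon counts in SMTer therefore do not show that exons had few reads. Zc3h7a, whose span holds Gm23935, took 19.0%, 9.08% and 15.9% of mapped reads in SMTer and 0.285%, 0.140% and 0.172% in Tru4. Gm23935 alone made up 30.9% to 33.2% of the reads in the span in SMTer and 28.4% to 30.8% in Tru4. On the exons of Zc3h7a the deposited counts held 146, 4 and 1 reads in SMTer and 764, 1300 and 845 in Tru4. Zfp791 had the largest rise of any coding gene, at 997, 515 and 1030 RPKM against 1.24, 1.48 and 1.22, with 0 exon counts in all 3 SMTer libraries. Atf2 and Peak1 also had at most 12 exon counts in any SMTer library while their spans held at least 204956 reads.

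Gm20594 was at 52.0, 25.9 and 65.2 RPKM against 0.437, 0.411 and 0.564, with at most 1 exon count in any library. Hist1h2af was at 62.5, 31.1 and 113 RPKM against 0.793, 1.31 and 1.12. A miRNA annotation inside it, Gm44297, covers 88.6% to 91.5% of its reads in SMTer and 96.6% to 97.7% in Tru4. Of the 46 coding genes called higher that are not histones, 23 hold another annotated gene, and 9 are ribosomal protein genes. A rise of a span here does not by itself show a rise of that gene's message.

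**Figure D4:**
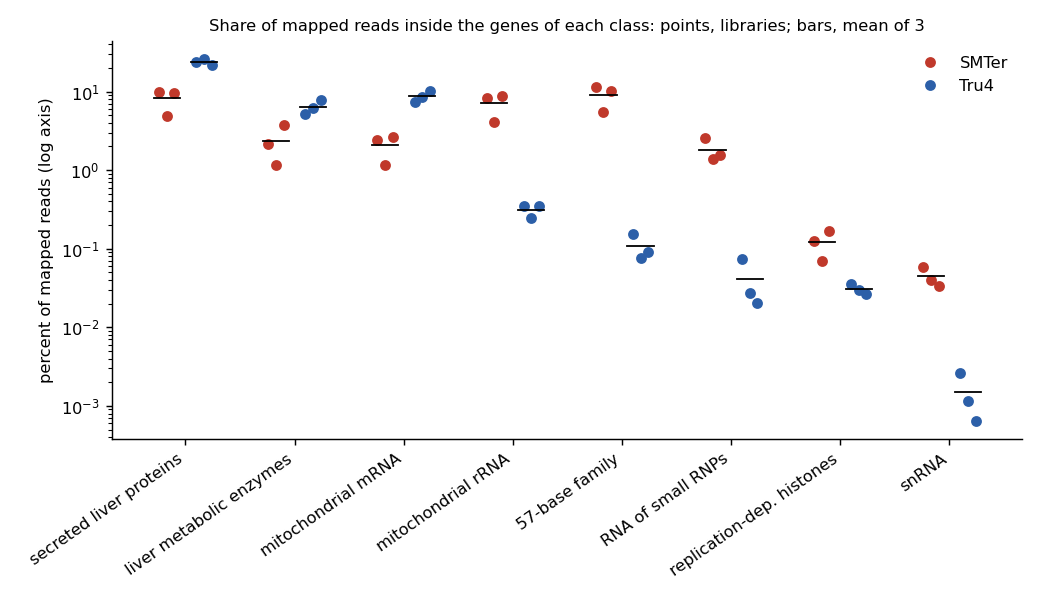
Percent of mapped reads inside the genes of each class (log axis) for 8 classes; points are the 3 libraries of each kit and bars their mean. Shares overlap where 1 gene lies inside another, and the kits do not overlap in any of the 8 classes.

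Shares of reads were compared at the level of whole libraries. A read inside overlapping genes of a class, or placed at several copies, counts in each of them. Genes of small ribonucleoproteins took 2.52%, 1.39% and 1.56% of mapped reads in SMTer and 0.0743%, 0.0275% and 0.0206% in Tru4, 44.7 times as much on average. The share of snRNA was 0.0593%, 0.0404% and 0.0337% against 0.00264%, 0.00115% and 0.000651%, and of replication-dependent histones 0.124%, 0.0694% and 0.1697% against 0.0355%, 0.0296% and 0.0263%. Spans of protein-coding genes took 76.3%, 56.998% and 74.8% against 91.4%, 95.5% and 92.8%. In each of these the kits did not overlap, and the two-sided exact permutation test gave p = 0.1, its smallest possible value. The coding share in SMTer includes spans that hold copies of the 57-base family. Zc3h7a alone took 19.0%, 9.08% and 15.9% of mapped reads there, and Peak1 holds the copy Gm24270. These reads were not taken out of the coding share.

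Numbers of genes at an RPKM of at least 1 also differed between kits, while genes with any read overlapped, at 22645 to 25122 in SMTer and 24261 to 24711 in Tru4. Protein-coding genes at an RPKM of at least 1 numbered 2741, 1528 and 2877 in SMTer and 4545, 4682 and 4579 in Tru4. For snRNA the numbers were 66, 53 and 47 against 31, 32 and 7, for snoRNA 104, 73 and 116 against 32, 51 and 40, and for replication-dependent histones 60, 59 and 61 against 36, 35 and 36. The second SMTer library had the fewest coding genes of the 6. For snoRNA the mean difference of 56.7 genes fell to 3 at a minimum of 0.1 RPKM.

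Of the liver genes, those for plasma proteins and for metabolic enzymes were mostly lower in SMTer on the deposited scale. All 56 genes of secreted proteins were tested, and 43 were called lower, against 44.2% of all genes tested, and 0 higher, with a median difference of -1.50. Of 64 tested enzyme and transporter genes 52 were lower and 0 higher, also with a median of -1.50. On the centred scale 12 and 9 were lower, against 7.25% of all genes tested, and 1 of each list was higher, with medians of -0.52 in both. With the fractions as labelled 14 and 21 were lower on the deposited scale, where 2333 of all 7132 genes tested were lower.

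Alb stood at 1618, 882 and 1808 RPKM in SMTer and 5628, 6658 and 6037 in Tru4, a difference of -2.15 ± 0.50 (SE, adjusted p = 3.80e-05) and of -1.17 on the centred scale. Apoe, which carries lipids for uptake by receptors, had the highest mean of log2(RPKM + 1) over the 6 libraries in the list, though Alb was higher in all 3 Tru4 libraries. Apoe was at 2365, 1226 and 2668 RPKM against 4754, 4676 and 4042. Apoa1, the main protein of high density lipoprotein, was at 1384, 680 and 1077 RPKM against 3007, 2954 and 2015. Its partner Apoa2 was at 1146, 748 and 1431 against 3585, 3684 and 3169. In each of these the kits did not overlap, and of them Alb alone was called on the centred scale.

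Ahsg, the plasma glycoprotein fetuin-A, was at 436, 201 and 302 RPKM against 2091, 1959 and 1283, with a difference of -2.54, and it kept its call on the centred scale (-1.56, adjusted p = 0.00336). Serpina1c, an antitrypsin with close copies, was at 519, 228 and 385 RPKM against 966, 912 and 656. The secreted genes that were lowest on the centred scale were Apoc3, an inhibitor of lipoprotein lipase (-2.04), and Hpx, the heme carrier hemopexin (-1.67). Apob, with a span of 39188 bases, was the gene that was higher there, at 98.9, 43.9 and 94.6 RPKM against 55.3, 63.6 and 51.9 on the deposited scale.

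Among enzymes Cyp2e1, a cytochrome P450 that oxidises ethanol, had the firmest loss of those named by level, at 81.6, 37.1 and 56.6 RPKM against 325, 300 and 214. Its difference was -2.29 ± 0.52 (SE, adjusted p = 2.53e-05) and -1.31 on the centred scale. Fabp1, the fatty acid binding protein of liver, was at 170, 72.4 and 185 RPKM against 543, 470 and 464. The glutathione transferase Gstm1 was at 94.9, 67.5 and 145 RPKM against 208, 303 and 306. All 3 lay below in every SMTer library.

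Some enzymes varied widely between mice. Scd1, a desaturase of fatty acids, was at 153, 118 and 1084 RPKM in SMTer and 282, 507 and 1942 in Tru4, highest in the third mouse with both kits. Pck1, which starts gluconeogenesis from oxaloacetate, was at 37.9, 62.0 and 109 RPKM against 69.4, 327 and 212. Both were called lower, but their libraries overlap between kits. Within each mouse SMTer was the lower kit for both genes.

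The enzyme genes called lower on the centred scale were Khk, Gnmt, Acaa1b, Ttc36, Aldh2, Cyp2e1, Hpd, Cyp8b1 and Cyp4a14, with differences of -1.65 to -1.04. Khk phosphorylates fructose, Gnmt methylates glycine, and Cyp8b1 makes cholic acid. Khk was at 7.32, 2.91 and 16.7 RPKM against 43.4, 38.0 and 77.6. Ass1 of the urea cycle was the enzyme gene that was higher on that scale, at 6.27, 4.52 and 10.9 RPKM against 4.19, 8.54 and 7.18 on the deposited one, where its kits overlap.

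Of 17 tested transcription factors of liver, 8 were called lower and 0 higher, near the 44.2% of all genes tested that were lower. The median difference was -0.80. On the centred scale 0 were lower and 3 higher, against 7.25% and 14.5% of all genes tested, so that the 3 are near the share of all genes. Cebpa, a driver of hepatocyte differentiation, was at 52.8, 20.4 and 54.2 RPKM against 95.9, 63.7 and 86.7. Its call (adjusted p = 0.0432) was lost with the mouse as a block (adjusted p = 0.0558). Xbp1, of the unfolded protein response, was lower at 11.7, 3.16 and 8.97 RPKM against 31.5, 19.6 and 21.6. Cebpb overlapped between kits at 24.4, 19.7 and 38.4 RPKM against 16.3, 27.3 and 20.5, and was among the 3 higher on the centred scale with Onecut1 and Prox1.

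Messages of the mitochondrial genome, which carry short tails, were the group with the lowest median. Of 13, 11 were called lower and 0 higher, against 44.2% and 8.42% of all genes tested, with a median difference of -2.16. On the centred scale 10 were lower, against 7.25% of all genes tested, with a median of -1.18. With the fractions as labelled 3 were called lower, where 2333 of all 7132 genes tested were. mt-Co1, a subunit of cytochrome oxidase, was at 4018, 1901 and 4548 RPKM in SMTer and 12373, 14446 and 16088 in Tru4, and mt-Atp6 at 3921, 1814 and 4421 against 11514, 14690 and 16555. mt-Atp8, which overlaps mt-Atp6, was at 2128, 1008 and 2279 RPKM against 11880, 15998 and 19347. mt-Nd5 overlapped between kits at 1775, 851 and 1878 RPKM against 1601, 1984 and 2653. mt-Nd6, on the other strand of the genome, was not called either.

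Within the mitochondrial genome, rRNA was higher and mRNA lower. NuG had 85457 to 91354 summed RPKM of mitochondrial mRNA, and Tru4 had 85661 to 120540. NEB had 41341 to 63687. In SMTer the sum was 26263, 12541 and 28606, below every library of the other kits named here.

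The 6 coding genes with the largest fall encode, with 1 exception, parts of the respiratory chain or of the ATP synthase. They were mt-Co2 (-3.29), mt-Co3 (-3.20), mt-Atp8 (-3.18), Atp5g3 and Atp5e of the ATP synthase (-3.29 and -3.12), and Rabac1, a receptor for prenylated Rab proteins (-3.29). Atp5e was at 2.92, 1.67 and 3.40 RPKM in SMTer and 28.1, 30.7 and 31.8 in Tru4. Rabac1 was at 1.17, 0.583 and 0.645 RPKM against 16.8, 16.8 and 15.6. All 6 were also called on the centred scale, at -2.14 to -2.31. Centring shifts every difference by the same amount, and the 6 were picked by size, so that this is no separate support.

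Ribosomal protein genes were called lower less often than all genes tested. Of 77 tested, 9 were called higher and 16 lower, against 8.42% and 44.2% of all genes tested, with a median difference of -0.14. On the centred scale 30 were higher and 2 lower, against 14.5% and 7.25%. Rpl8 was lower at 41.9, 19.4 and 50.2 RPKM against 111, 106 and 99.0, and Rpl41 at 34.4, 12.957 and 43.0 against 99.8, 93.4 and 93.0. Rplp1 was not called, at 97.0, 37.9 and 108 RPKM against 105, 89.4 and 95.1, and its difference went from -0.39 to 0.59 on the centred scale. Rpl21 was higher at 7.57, 3.30 and 6.37 RPKM against 0.835, 0.835 and 0.902. Many of these genes have processed pseudogenes of near-identical sequence, of which 300 of 1567 tested over all genes were called higher and 545 lower, so that how reads were split between copies is uncertain.

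**Figure D5:**
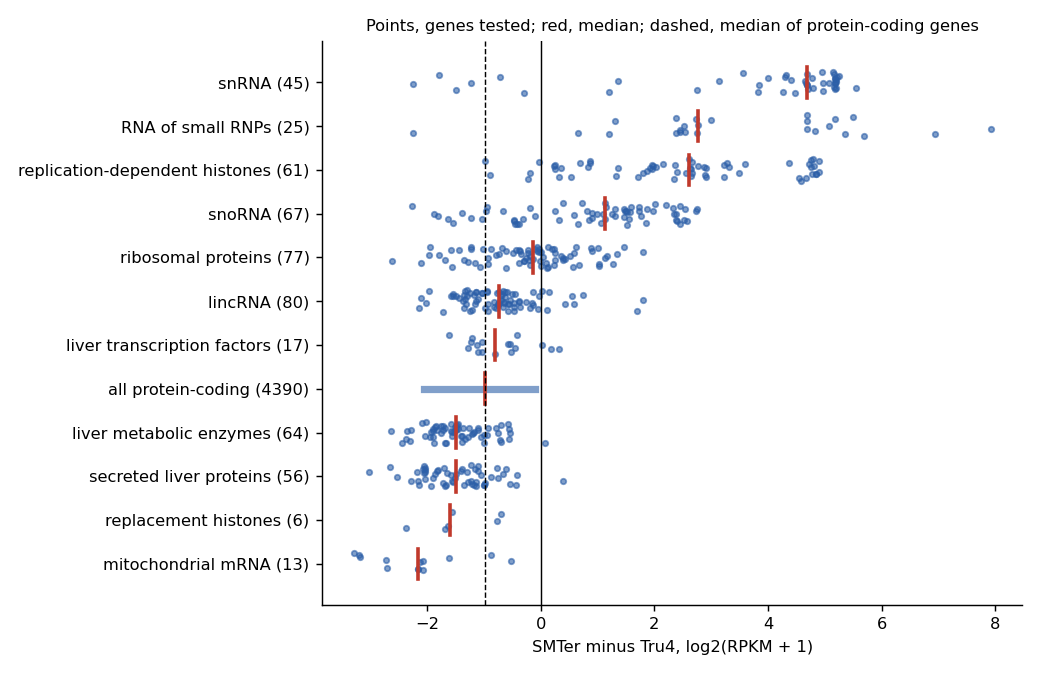
Difference between kits (SMTer minus Tru4, log2(RPKM + 1) scale) for the tested genes of each class; points are genes, red bars medians, the numbers in brackets the genes tested, the dashed line the median of protein-coding genes, and for all protein-coding genes the thick bar spans the 5th to the 95th percentile. Medians run from 4.68 for snRNA to -2.16 for mitochondrial mRNA.

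Of 21 tested markers of cells other than hepatocytes, 11 were called lower in SMTer on the deposited scale and 0 higher, near the 44.2% of all genes tested that were lower. Both kits were run on RNA of the same 3 livers, so that these values compare kits and not the makeup of cells. Of 6 tested Kupffer cell markers 5 were called lower and 0 higher on the deposited scale, among them Clec4f at 3.06, 1.58 and 2.84 RPKM against 8.71, 8.41 and 9.12. The 4 tested markers of sinusoidal endothelium were not called, with differences of -0.92 to -0.36. Of 6 markers of stellate cells 2 were lower, of 4 erythroid markers 3, and the 1 tested of cholangiocytes was lower. On the centred scale none of these lists had a call in either direction. Of 12 lymphocyte and 8 neutrophil markers 0 were high enough to test, with summed RPKM of at most 1.23 and 0.626 in any library, and Cd3d, Cd3e, Elane and Mpo stayed under 0.1 RPKM in all 6.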

How the data were processed

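RNA-seq libraries of liver input RNA from 3 mice were taken for SMTer and Tru4, and for NuG, NEB and Tru70 as values only. According to the methods, adapters were removed by the authors (Trimmomatic), reads were cut to 60 bases (FASTX Toolkit 0.0.13), and TopHat 2.0.8 placed each library on mm10 (GRCm38) with up to 25 hits per read. HTSeq and Bedtools 2.7.1 were named for counting on Ensembl 84. RPKM values were made by the authors for 47729 genes. Multiplied by the span of the gene from start to end and by the mapped reads of the file, they gave whole reads, within 0.1, for 86.2% to 90.1% of genes with reads in the libraries used. They are therefore per kilobase of span, introns included, and not of exons, and reads in a gene inside another count in both. Read shares were computed with the span in place of the exon length first planned. The deposited exon counts, whole numbers of reads per gene from the authors' counting with no normalization, were used in 1 alternative and to look at reads on exons. Their strand setting was not given in the sources used here.

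Genes at an RPKM of at least 1 in at least 3 of the 6 libraries were tested on log2(RPKM + 1) with limma 3.58.1 (R 4.3.3, lmFit and eBayes with trend), without a block. The trended fit gave an infinite prior degree of freedom, so that very small adjusted p-values rest on the spread shared by all genes. Without the trend 587 genes were higher and 3097 lower. The edgeR 4.0.16 quasi-likelihood test was run on the exon counts and on the recovered reads as alternatives, and each procedure was tested on simulated data. For shares and numbers of genes, an exact permutation test (two-sided) was used. With a count of 0, up to 3 reads cannot be told from none, and such limits cover counting error only, because PCR copies are not independent molecules.

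The numbers of the replicates were taken to name the same mice in both kits. The residuals of same-numbered libraries correlated at 0.41, 0.17 and 0.55, and those of other pairs at -0.44 to 0.11. SMTer replicate 2 correlated at 0.11 with Tru4 replicate 1, so that the second pair is hardly set apart by these values. GENCODE M21 (GRCm38) gave the position, class and transcripts of 47310 genes. The other 419 have no class and enter only the counts over all genes. The comparison, the gene lists and the rules were chosen with earlier results of these data known. Genes were named by their mean level over the 6 libraries within each list or class, and 6 coding genes each by the largest rise and fall without overlap. Further members are named where they are counted or bound a list. Some genes that this rule names are not reported here. Alternatives were another pseudocount, no filter, no minimum difference, centring, the block, the fractions as labelled, each library left out, other minimum levels, ribosomal genes left out of totals (nested genes counted once), and, added after seeing the data, the fit without trend, edgeR on recovered reads, and centring without the second SMTer library. Python 3.11.15 with scipy 1.17.1 was used for tables and matplotlib 3.10.9 for figures.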

Additional observations from a re-analysis of the deposited data

Results flagged for a closer look

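The deposited exon counts, used in the report only beside a few genes and in 1 alternative, held a signal outside the main measurement. In the 3 SMTer libraries 92.9%, 76.8% and 91.6% of the uniquely placed reads were assigned to no gene (mean 87.09%, SD 8.96, n = 3), against 7.91%, 6.22% and 6.68% in Tru4 (mean 6.94%, SD 0.875, n = 3). Only 750159 to 762562 reads were left on genes in SMTer, against 31299550 to 45466334 in Tru4. The strand setting of these counts was not given in the sources used here, and its part in the result was not tested.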

How the results depend on the processing

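Over 61 named genes and the settings tried, 770 values kept their direction and their side of the adjusted p threshold. A further 98 rose above that threshold, 24 fell below it and 23 changed sign. This tally uses the adjusted p alone, without the minimum difference that a call also needs. H1f0, H3f3b, H2afj and Gas5, for example, count as kept on the centred scale, where none of them was called. Of the summary values 210 stayed within their spread or within 1.5 times, and 29 did not. The cause was not tested unless the setting itself gives it. Genes called higher (592) numbered 1019 on the centred scale, 1076 with centring and the second SMTer library left out, 2771 by edgeR on exon counts and 3410 by edgeR on recovered reads, which tested 14530 and 20119 genes. Genes called lower (3111) numbered 510 centred, 413 with the second SMTer library left out as well, 4851 with a pseudocount of 0.1 and 5147 with no minimum difference. Called higher of all called was 49.2% by edgeR on exon counts and 58.9% on recovered reads. Secreted liver genes called lower (43) numbered 12 centred, 14 with the fractions as labelled, 15 by edgeR on recovered reads and 7 centred without the second SMTer library. For liver enzymes (52) these were 9, 21, 12 and 6, and for mitochondrial mRNA (11) 3 as labelled and 6 centred without the second SMTer library. Over all genes tested, 2333 of 7132 were lower as labelled and 2377 of 20119 by edgeR on recovered reads. Read shares in points, SMTer minus Tru4, moved with the fractions as labelled from 0.0905 to 0.28554 for histones, 6.73 to 4.0776 for mitochondrial rRNA, -6.60 to -4.3101 for mitochondrial mRNA and -15.6 to -12.318 for secreted liver genes. The difference in numbers of genes at a minimum RPKM went from -2220 to -461.67 for coding genes at a minimum of 10, from 32 to 16 for snRNA at 0.1, from 56.7 to 3 and 1.3333 for snoRNA at 0.1 and 10, and from 24.3 to 7 and 26.667 for histones at 0.1 and 10, or 20 as labelled.

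Values after a change of sign among named genes were at most 0.8858, for Hist1h2bg. Scd1 and Cebpa, called lower in the main fit at -1.27 and -1.04, also changed sign in 1 setting. On the centred scale Hist1h2bg went to 0.7961, Tug1 to 0.1902, Gm24853 to 0.0205 and Rplp1 to 0.5943. With centring and the second SMTer library left out they went to 0.8858, 0.206, 0.1459 and 0.8739, Gm26825 to 0.227, Scd1 to 0.115 and Cebpa to 0.2034. By edgeR on recovered reads Hist1h2bg went to 0.8483, Gm24853 to 0.0629, Gm26825 to 0.0709 and Rplp1 to 0.6715. As labelled, Hist1h2bg went to 0.6472 and Cebpb to -0.0205. Leaving out 1 library or the third mouse, Hist1h2bg ranged from -0.5549 to 0.0946, Rplp1 from -0.6675 to 0.0827, AY036118 from -0.1853 to 1.0118, Gm42418 from -0.1066 to 1.0034, CT010467.1 from -0.2081 to 0.8797 and Gm22009 from -0.1764 to 0.4924. Leaving out libraries in turn, with the same 7035 genes, gave 522 to 677 genes higher and 2304 to 3578 lower, and the second SMTer library gave the 677 and the 2304. Calls ranged from 44 to 49 for histones, 22 to 23 for small ribonucleoproteins, 39 for snRNA, 33 to 40 for snoRNA, 31 to 46 for secreted liver genes, 43 to 55 for enzymes and 10 to 11 for mitochondrial mRNA. With the mouse as a replicate block 592 genes were higher and 3103 lower, and of the named genes only Cebpa lost its call. Depth limits SMTer most: 3 reads are 0.0905 RPKM per kilobase of span in its smallest library and 0.0241 in the largest Tru4 library.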
